A study of Arabidopsis thaliana with 6 samples.

Results

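The 10 class I TCP transcription factor genes TCP7, TCP8, TCP9, TCP14, TCP15, TCP19, TCP20, TCP21, TCP22 and TCP23 of Arabidopsis thaliana were followed by their locus identifiers, and all 10 were found among the 38194 loci counted. RNA was sequenced from 12-day-old seedlings of a 35S:GR-TCP5 line, which expresses a fusion of the glucocorticoid receptor and TCP5 from 35S, a promoter active in most tissues; the fusion moves into the nucleus once the steroid dexamethasone (DEX) is bound. The DEX group of 3 libraries was treated for 4 h with 10 mM dexamethasone in 0.1% ethanol and 0.015% silwet, and the MOCK group of 3 libraries with the same solution without dexamethasone. The dose is printed as labelled, and plants are commonly given this steroid in the micromolar range. All plants carried the construct, so effects of the steroid itself cannot be told apart from those of TCP5. The labels do not say how many plants or independent lines were used, nor whether each replicate was grown separately. The p-values therefore cover spread among the 6 libraries only, some or all of which may be technical. By the library names, replicates 1 and 2 of both groups share a date and lane (lane 1) and replicate 3 of both groups has a later date and another lane (lane 7), called the first and second run here.

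TCP proteins are plant-specific transcription factors with a basic helix-loop-helix type DNA-binding domain, and fall into class I, whose members were first described as activators of proliferation genes, and class II, which holds the CIN group of TCP5. Class I proteins bind GC-rich elements such as the site II motif found upstream of cell cycle and ribosomal protein genes, and their action overlaps between members. TCP14 and TCP15 act in cell division and internode growth, and TCP21, also known as CHE, binds the promoter of the clock gene CCA1. In leaves, class I and CIN proteins have been described as acting on growth in opposite ways, with shared targets such as LOX2.

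The 250 bases before the annotated start of 5 members are shown. They are the 4 members with an unadjusted p under 0.05 between DEX and MOCK (TCP21, TCP7, TCP9 and TCP15) and TCP19, in which the site II letters TGGGCC were found. The sequences come from the RefSeq annotation of TAIR10.1, matched by locus, and run 5′ to 3′ on the strand of the gene, which is the plus strand of chromosome 5 for TCP21 and TCP7, the minus strand of chromosome 2 for TCP9, the plus strand of chromosome 1 for TCP15 and the minus strand of chromosome 5 for TCP19. Capitals mark matches to any of 5 motifs searched on both strands, named below.
TCP21: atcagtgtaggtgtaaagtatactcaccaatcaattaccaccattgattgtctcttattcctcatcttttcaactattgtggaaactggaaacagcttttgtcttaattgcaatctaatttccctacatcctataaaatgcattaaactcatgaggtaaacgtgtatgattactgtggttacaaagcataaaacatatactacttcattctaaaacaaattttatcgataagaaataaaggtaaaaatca
TCP7: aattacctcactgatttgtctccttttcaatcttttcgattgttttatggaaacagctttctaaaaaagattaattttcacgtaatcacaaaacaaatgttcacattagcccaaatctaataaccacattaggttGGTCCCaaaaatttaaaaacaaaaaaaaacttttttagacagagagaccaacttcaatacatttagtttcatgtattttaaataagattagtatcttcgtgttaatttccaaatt
TCP9: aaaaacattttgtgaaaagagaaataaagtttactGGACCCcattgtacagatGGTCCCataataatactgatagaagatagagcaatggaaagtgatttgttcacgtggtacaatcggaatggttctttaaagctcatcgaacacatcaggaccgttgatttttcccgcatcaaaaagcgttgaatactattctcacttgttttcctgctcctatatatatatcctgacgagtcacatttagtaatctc
TCP15: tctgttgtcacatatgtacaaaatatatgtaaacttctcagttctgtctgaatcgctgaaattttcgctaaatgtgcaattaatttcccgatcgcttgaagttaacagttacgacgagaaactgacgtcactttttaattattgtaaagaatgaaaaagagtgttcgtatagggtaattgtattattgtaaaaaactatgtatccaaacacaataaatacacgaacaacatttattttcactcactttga
TCP19: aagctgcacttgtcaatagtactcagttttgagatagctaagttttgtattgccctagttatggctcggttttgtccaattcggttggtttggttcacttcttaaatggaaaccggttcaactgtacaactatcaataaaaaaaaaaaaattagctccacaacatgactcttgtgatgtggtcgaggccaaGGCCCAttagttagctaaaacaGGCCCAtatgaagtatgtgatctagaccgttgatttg

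All motifs were chosen with the members' values known, and GGNCCC was added after the sequences above had been read and the other 4 motifs searched. The 5 windows shown were also chosen after the values were seen. The letters GGNCCC, the core shared by class I and class II binding sites, were found in 2 of 10 members, once in TCP7, with the first base of the match 115 bases before the start, and at 215 and 197 bases before it in TCP9. Of 27443 promoters of protein-coding genes, 7.35% held it. The TCP9 window overlaps AT2G45685, a noncoding locus on the opposite strand. Whether the matches in TCP9 lie within that locus was not determined. The letters TGGGCC, 1 form of the site II motif, were found at 59 and 37 bases before the start of TCP19 and in no other member, against 13.7% of all promoters. The form TGGGCT was not searched, and its reverse complement AGCCCA stands in the TCP7 window, unmarked. So the search does not show that TCP19 is the only member with a site II motif. The class I consensus GTGGGNCC (1.09% of all promoters), the class II consensus GTGGNCCC (0.67%), both of which contain GGNCCC on 1 strand, and the evening element AAAATATCT of clock-regulated genes (2.36%) were in none of the 10 windows. The windows of TCP21 and TCP15 thus held none of these letters.

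The comparison of DEX with MOCK asked which class I genes had other transcript levels after TCP5 activation. TCP21 fell, and 9 of 10 members did not pass the test. TCP7 and TCP15 were lower and TCP9 higher with DEX by estimates whose 95% intervals left out 0 without passing over all genes. Levels are given as CPM, in which each library's exon counts were divided by its TMM-scaled total, and p-values come from edgeR's quasi-likelihood test with run and treatment as terms, adjusted by Benjamini-Hochberg over 21934 genes. Over those genes, 4.67% passed in either direction, 3.58% lower and 1.09% higher with DEX, so 1 call among 10 members is near that background. At an unadjusted p under 0.05, 4 members passed (TCP21, TCP7, TCP9 and TCP15), against 19% of all genes.

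TCP21 (AT5G08330) had 35.3, 27.4 and 39.0 CPM with DEX, against 41.6, 48.3 and 58.0 CPM with MOCK. All 3 DEX libraries lay below all 3 MOCK libraries. The RefSeq table gives this locus the symbol TCP11, with TCP21 and CHE as synonyms. The DEX mean was 33.9 ± 5.91 CPM and the MOCK mean 49.3 ± 8.26 CPM (SD, n = 3 each). The log2 fold change was −0.54 ± 0.12 (SE, 95% interval −0.80 to −0.27, edgeR adjusted p = 0.0414), or 0.689-fold. A fit blocked on the replicate number gave an adjusted p of 0.0817, and the first run alone gave 0.139. The call was kept without DEX replicate 1 (adjusted p = 0.0149) and lost without any other single library (0.0740 to 0.185), with log2 fold changes between −0.65 and −0.43.

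TCP7 (AT5G23280) had 17.7, 17.4 and 21.8 CPM with DEX, against 21.3, 26.7 and 27.0 CPM with MOCK. Within each run the DEX libraries were below the MOCK libraries, and over both runs the groups overlapped at 21.8 and 21.3 CPM. The log2 fold change was −0.41 ± 0.11 (95% interval −0.65 to −0.16, edgeR adjusted p = 0.0782). TCP15 (AT1G69690), which acts with TCP14 in cell division and growth, had 12.9, 9.50 and 4.50 CPM with DEX, against 12.7, 15.1 and 7.86 CPM with MOCK. In the first run 1 DEX library lay above 1 MOCK library, and in the second run DEX was below MOCK. The log2 fold change was −0.45 ± 0.17 (95% interval −0.84 to −0.07, edgeR adjusted p = 0.185). The adjusted p was 0.0441 without DEX replicate 1 and between 0.190 and 0.510 without any other single library.

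TCP9 (AT2G45680), reported together with TCP20 to act on LOX2 and thus on jasmonate synthesis, had 30.3, 22.6 and 62.1 CPM with DEX, against 10.3, 18.9 and 31.7 CPM with MOCK. DEX libraries were above MOCK libraries within each run, and the groups overlapped over both runs. The log2 fold change was 0.89 ± 0.24 (95% interval 0.30 to 1.49, edgeR adjusted p = 0.117). Its edgeR adjusted p was 0.0305 without MOCK replicate 2 and between 0.111 and 0.365 without any other single library. These counts cannot be given to TCP9 alone. The long noncoding locus AT2G45685 runs on the opposite strand over 98.6% of TCP9's exon bases, the library kit does not mark strand, and both loci had the same counts within 7 reads in each library (1771 and 1772 in DEX replicate 1, 757 and 757 in MOCK replicate 1).

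**Figure D1:**
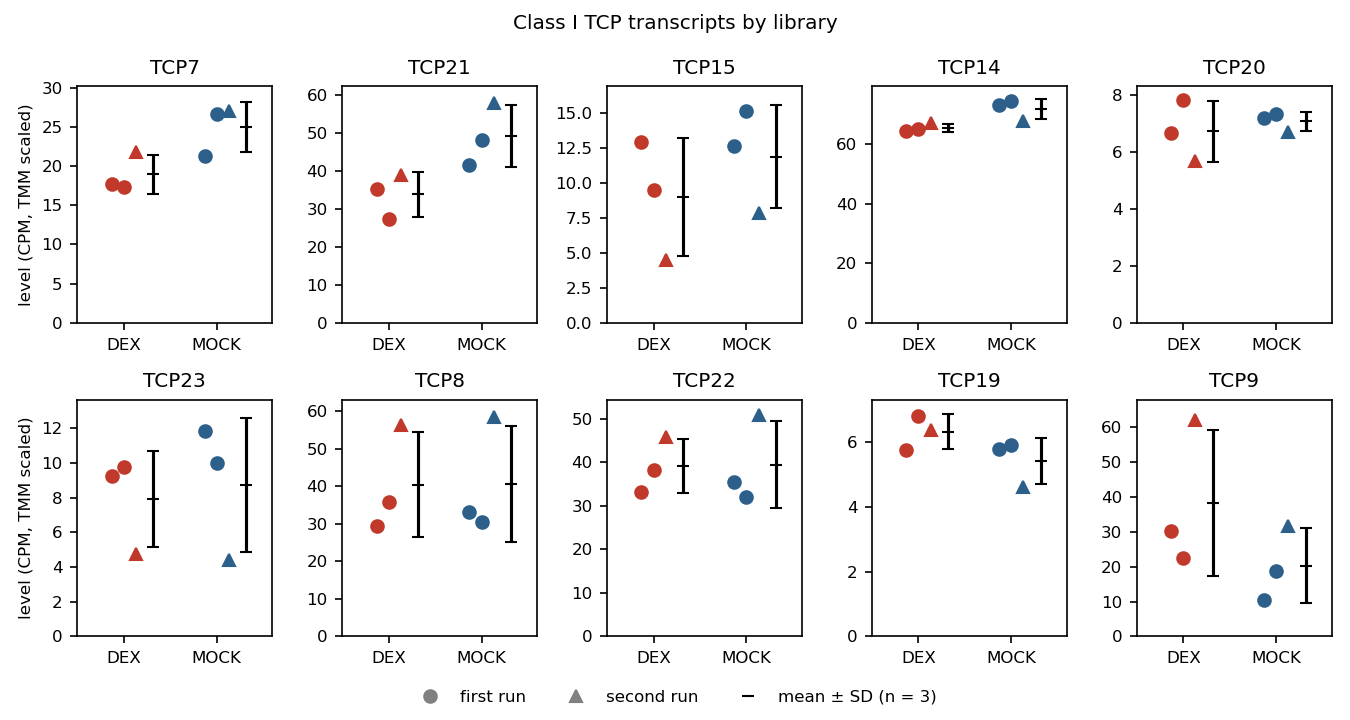
Levels of the 10 class I TCP genes in CPM (vertical axes from 0), with a point for each DEX (red) and MOCK (blue) library, circles for the first run and triangles for the second; black bars give the mean ± SD of 3 libraries. TCP21 is lower in all DEX libraries (27.4 to 39.0 CPM) than in all MOCK libraries (41.6 to 58.0 CPM). For TCP8, TCP9, TCP15, TCP22 and TCP23 the run separates the points more than the treatment does.

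The other 6 members had smaller estimates. TCP14 (AT3G47620), a partner of the DELLA repressors, had 64.4, 65.0 and 67.0 CPM with DEX, against 73.0, 74.3 and 67.9 CPM with MOCK. The groups did not overlap, but the second-run values lay close together, and the log2 fold change of −0.13 ± 0.08 did not pass (edgeR adjusted p = 0.445). TCP8 (AT1G58100), a regulator with a role in salicylic acid synthesis, had 29.3, 35.7 and 56.2 CPM with DEX, against 33.2, 30.5 and 58.4 CPM with MOCK. TCP22 (AT1G72010) had 33.3, 38.3 and 45.7 CPM with DEX, against 35.4, 32.02 and 50.8 CPM with MOCK. For both genes the groups overlapped, with log2 fold changes of 0.00 ± 0.10 and 0.01 ± 0.10. The 95% intervals ran from −0.23 to 0.23 for TCP8 and from −0.22 to 0.24 for TCP22.

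TCP19 (AT5G51910) had 5.77, 6.83 and 6.39 CPM with DEX, against 5.78, 5.90 and 4.61 CPM with MOCK. Its log2 fold change was 0.22 ± 0.15 (95% interval −0.12 to 0.56), and the groups overlapped in the first run, with DEX above MOCK in the second. The antisense locus AT5G51915 covers 14.0% of its exon bases and had at most 28 counts in a library. TCP20 (AT3G27010), which binds site II elements and takes part in nitrate foraging of roots, had 6.67, 7.82 and 5.68 CPM with DEX, against 7.20, 7.34 and 6.70 CPM with MOCK. TCP23 (AT1G35560) had 9.22, 9.76 and 4.74 CPM with DEX, against 11.8, 9.98 and 4.41 CPM with MOCK. Both groups of libraries overlapped for these 2 genes, with log2 fold changes of −0.08 ± 0.13 (95% interval −0.38 to 0.22) and −0.11 ± 0.13 (−0.41 to 0.19).

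**Figure D2:**
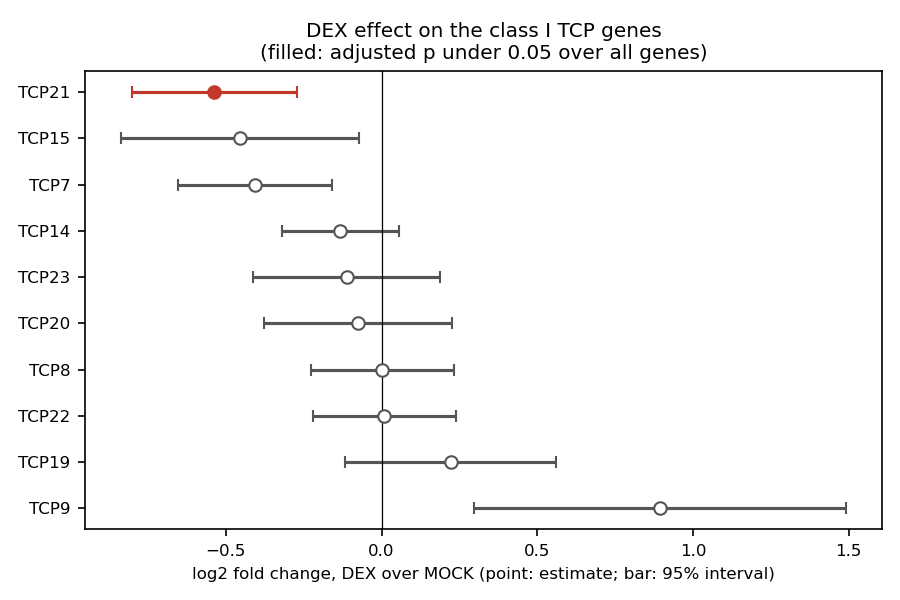
Log2 fold change of DEX over MOCK for each class I TCP gene (horizontal axis), with the 95% interval as a bar and a filled point where the adjusted p over all genes was under 0.05. TCP21 at −0.54 is the filled point, and the intervals of TCP15, TCP7 and TCP9 also leave out 0.

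As a group, 6 members had estimates below 0 and 4 above 0, with a median log2 fold change of −0.09, against 0.00 over all genes tested. Within each run, all DEX libraries lay below all MOCK libraries for 3 members (TCP7, TCP14 and TCP21), against 17.8% of all genes, and above them for 1 member (TCP9), against 14.7%. Over both runs together 2 members (TCP14 and TCP21) had all DEX libraries below all MOCK libraries, against 4.65% of all genes, and 0 had them all above, against 3.53%. DESeq2 called 3 of 10 members, TCP21 (adjusted p = 0.00382), TCP7 (0.0363) and TCP9 (0.00517), and called 2045 genes in all. Without the run term edgeR called 0 members and 0 genes.

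Levels of different genes were compared per length, as CPM per kb of the gene length given by the authors. TCP14 had the highest mean over the 6 libraries at 27.8 CPM per kb, followed by TCP21 (26.1), TCP22 (22.8), TCP8 (21.8), TCP9 (17.8) and TCP7 (10.8). TCP23 (5.90), TCP19 (5.09), TCP15 (5.05) and TCP20 (4.71) formed the low end. Among the 9 pairs of neighbours in this order, TCP7 over TCP23 was the one pair with the same gene higher in 6 of 6 libraries. The other 8 pairs changed places in some libraries, so their order does not exceed the spread. The order of the group means also differed. TCP21 had a mean of 21.3 CPM per kb with DEX, below TCP14 at 26.5, TCP9 at 23.2, TCP22 at 22.8 and TCP8 at 21.7. With MOCK its mean was 30.9 CPM per kb, above TCP14 at 29.1 and the other 8 members. These orders did not hold in each library. In DEX replicate 1 TCP21 (22.2) lay above TCP22 (19.4), TCP9 (18.4) and TCP8 (15.8). In MOCK replicate 1 TCP14 (29.6) lay above TCP21 (26.1). Summed over the 10 members, the level was 133, 130 and 172 CPM per kb with DEX, against 135, 144 and 173 CPM per kb with MOCK. Without TCP9 the sum was 114, 116 and 134 CPM per kb with DEX, against 129, 133 and 154 CPM per kb with MOCK. With and without TCP9, each DEX library lay below the MOCK libraries of its run. The share of TCP21 in the summed level was 16.7%, 13.2% and 14.2% with DEX, against 19.3%, 20.99% and 21.1% with MOCK. That of TCP9 was 13.8%, 10.5% and 21.9% with DEX, against 4.64%, 7.92% and 11.1% with MOCK. Both shares rest on a sum that holds counts which cannot be given to TCP9 alone, and shares without TCP9 were not computed.

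**Figure D3:**
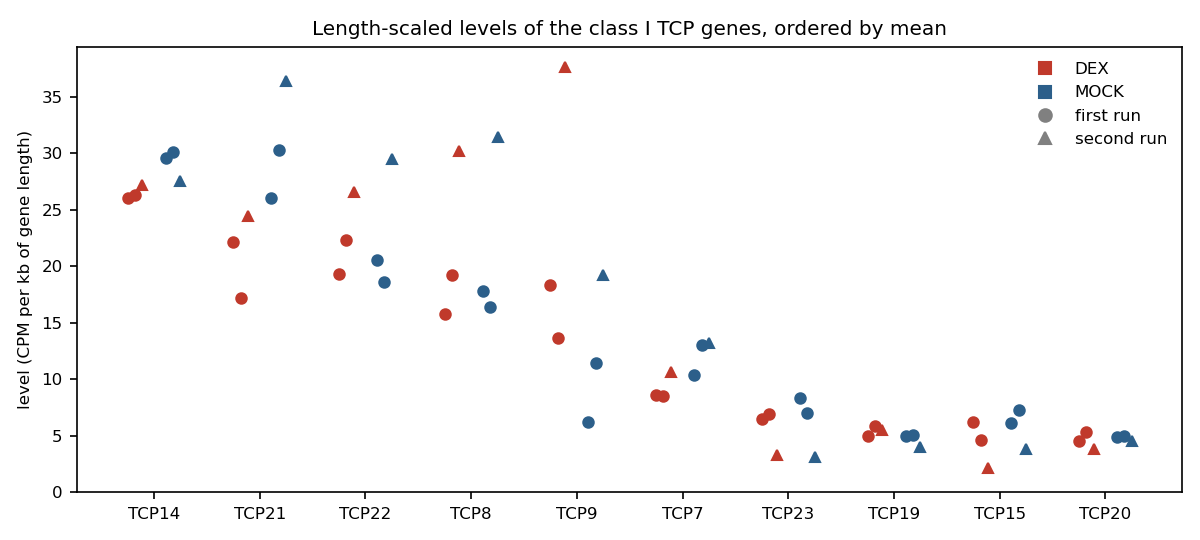
Level of each class I TCP gene in CPM per kb of gene length (vertical axis from 0), in order of the mean over all 6 libraries, with DEX in red left of MOCK in blue, circles for the first run and triangles for the second. The points of TCP14 (mean 27.8) to TCP9 (17.8) overlap, and TCP23 (5.90) to TCP20 (4.71) form a lower set below TCP7 (10.8).

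More members passed between the runs than between the treatments. In the second run against the first, TCP9 (log2 fold change 1.17 ± 0.25), TCP8 (0.83 ± 0.10), TCP22 (0.47 ± 0.10) and TCP21 (0.34 ± 0.12) were higher, and TCP23 (−1.15 ± 0.15) and TCP15 (−1.05 ± 0.19) were lower (edgeR adjusted p from 0.000289 to 0.0421). These are 6 of 10 members, against 55.5% of all genes tested, which is near the background. TCP7, TCP14, TCP19 and TCP20 did not pass. Other transcripts moved with the run too. The evening clock gene TOC1, whose protein binds TCP21, was 2.96-fold higher in the second run, the morning gene CCA1 was at 0.270-fold, and TCP5 was 3.85-fold higher. The 13 root markers summed to 372, 307 and 1225 CPM with DEX, against 563, 724 and 3272 CPM with MOCK, with 4 to 7 of the 13 at 0 counts in each first-run library and 0 in the second-run libraries. Nearly all of each sum was PYK10, a beta-glucosidase gene of root and seedling ER bodies, which fell with DEX (log2 fold change −1.11 ± 0.17, edgeR adjusted p = 0.0118) and was the 1 root marker of 7 tested that passed. The other 12 root markers summed to 6.37, 5.93 and 102 CPM with DEX, against 6.34, 8.59 and 167 CPM with MOCK, and overlapped in the first run. All 7 tested root markers, PYK10 included, had estimates below 0 with DEX. Their median log2 fold change was −1.34, against 0.00 over all genes tested. The 8 green leaf markers summed to between 30035 and 40571 CPM with DEX and between 33778 and 41249 CPM with MOCK. In such bulk samples fewer cells of a type and less RNA per cell cannot be told apart, and the part of the root transcripts in the DEX values of the members was not tested.

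The DEX effect itself was compared between the runs with an interaction term. None of the 10 members passed (edgeR, 0 at an unadjusted p under 0.05), nor did any gene, against 6.55% of all genes at an unadjusted p under 0.05. For TCP21 the difference on the log2 scale was −0.06 ± 0.26 (95% interval −0.68 to 0.57), with DEX minus MOCK differences in log2(CPM + 0.5) of −0.57 in the second run and −0.52 in the first. For TCP9 it was 0.12 ± 0.59 (−1.48 to 1.71), and for TCP15 it was −0.50 ± 0.34 (−1.30 to 0.31). The second run holds 1 library a group, and these intervals leave room for sizeable differences.

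**Figure D4:**
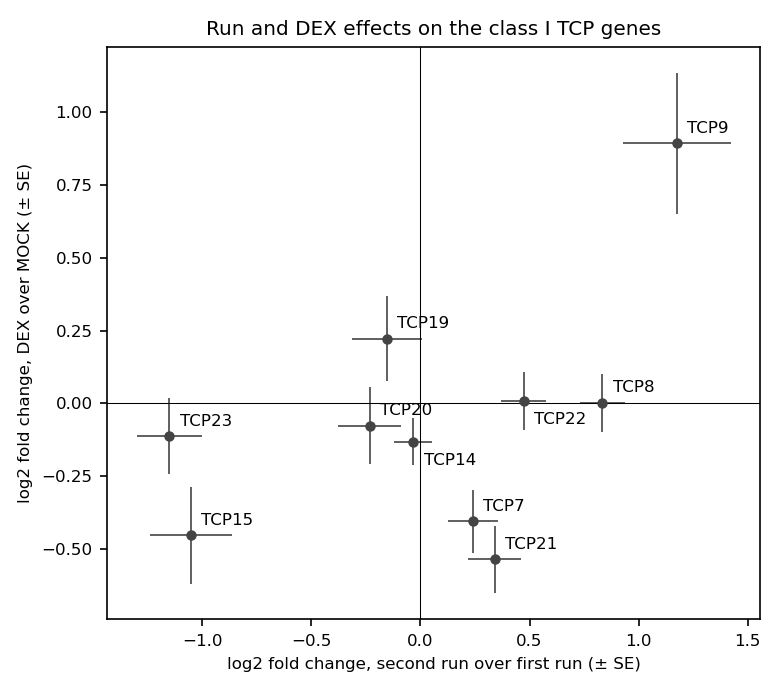
Log2 fold change of the second run over the first (horizontal axis) and of DEX over MOCK (vertical axis) for the 10 class I TCP genes, with SE bars. TCP9 lies high on both axes (1.17 and 0.89), TCP21 at 0.34 and −0.54, and TCP15 at −1.05 and −0.45.

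The 3 class I loci outside the 10 members were scarcely detected. AT2G37000, annotated as a TCP family factor, had 36, 24 and 14 exon counts with DEX, against 6, 16 and 4 with MOCK. The CPM of the groups did not overlap, and its log2 fold change of 1.71 ± 0.57 did not pass (edgeR adjusted p = 0.147). AT5G41030 had 8, 0 and 0 counts with DEX, against 2, 8 and 2 with MOCK. TCP16 (AT3G45150) had 0 counts in all 6 libraries. Both were below the filter on low counts.

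The lists of related genes were read from the same test. Of 8 CIN-class TCP genes, TCP10 (log2 fold change −0.69 ± 0.10), TCP13 (−0.50 ± 0.08) and TCP4 (−0.42 ± 0.09) fell, against 3.58% of all genes lower. TCP4 did not pass with the replicate block (edgeR adjusted p = 0.0852). The count was 5 with DESeq2 and 1 when the first run was fitted by itself. Leaving out DEX replicate 2 gave 0, as did leaving out MOCK replicate 2, and 1 gene passed when DEX replicate 3, MOCK replicate 1 or MOCK replicate 3 was dropped. The list's median was −0.35, against −0.09 for the 10 class I members. TCP5, whose counts join the transgene and the native gene, had 233, 263 and 964 CPM with DEX, against 323, 296 and 1177 CPM with MOCK, and did not pass (edgeR adjusted p = 0.152). Of 3 CYC/TB1-class genes 0 passed (edgeR, adjusted p from 0.101 to 0.927).

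Among 12 genes for partners and modifiers of TCP proteins, 10 were tested, 3 rose and 0 fell, against 1.09% of all genes higher and 3.58% lower, with a median log2 fold change of 0.09. The count was 1 without MOCK replicate 2. TIE4 (AT2G34010), annotated as a TCP interactor with an EAR repression motif, had 11.5, 7.85 and 6.81 CPM with DEX, against 2.79, 2.64 and 0.84 CPM with MOCK. All DEX libraries lay above all MOCK libraries, with a log2 fold change of 2.13 ± 0.27 (edgeR adjusted p = 0.00785). RGL3, a DELLA repressor of gibberellin response, had 9.79, 9.26 and 11.7 CPM with DEX, against 5.38, 4.42 and 6.57 CPM with MOCK (log2 fold change 0.92 ± 0.13, edgeR adjusted p = 0.00966). GAI, another DELLA gene, had 44.2, 37.5 and 49.3 CPM with DEX, against 26.4, 29.8 and 32.2 CPM with MOCK (0.56 ± 0.10, edgeR adjusted p = 0.0200; 0.0515 with the replicate block). DELLA proteins bind class I TCPs such as TCP14 and keep them from DNA. RGA, RGL1 and RGL2 did not pass, nor did SPY and SEC, the enzymes that modify TCP14 and TCP15 with sugars, or TOC1 (log2 fold changes from −0.41 to 0.28). TIE1 had a log2 fold change of −0.91 ± 0.60 and did not pass.

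Among 16 reported targets of class I TCPs, 1 rose, 1 fell and 14 did not pass, against 4.67% of all genes called, with a median log2 fold change of −0.08. The count of 2 became 5 with DESeq2, 0 without MOCK replicate 1 or MOCK replicate 2, and 1 with upper-quartile scaling and with the replicate block. It was also 1 when DEX replicate 2 or 3, or MOCK replicate 3, was dropped. CYCA2;3, a cyclin that keeps cells from endoreduplication, had 25.0, 19.2 and 13.9 CPM with DEX, against 11.7, 12.9 and 9.18 CPM with MOCK (0.77 ± 0.13, edgeR adjusted p = 0.0177), and overlaps AT1G15580. PAP1, an activator of anthocyanin synthesis, had 1.25, 0.66 and 0.65 CPM with DEX, against 2.36, 2.41 and 1.68 CPM with MOCK (−1.33 ± 0.30, edgeR adjusted p = 0.0459; 0.0703 with the replicate block). CCA1, to whose promoter TCP21 binds, had 50.1, 44.7 and 14.1 CPM with DEX, against 65.2, 61.7 and 15.6 CPM with MOCK. It was lower with DEX within each run, with a log2 fold change of −0.34 ± 0.10 that did not pass (edgeR adjusted p = 0.101). LOX2, a target of TCP9, TCP20 and the CIN genes, had a log2 fold change of −0.79 ± 0.27 (edgeR adjusted p = 0.199), and the nitrate transporter gene NRT1.1 of −0.52 ± 0.13 (0.0679). SAUR63 went the other way, at 0.60 ± 0.22 (edgeR adjusted p = 0.190). Of the 16 targets, 7 had estimates above 0 and 9 below.

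**Figure D5:**
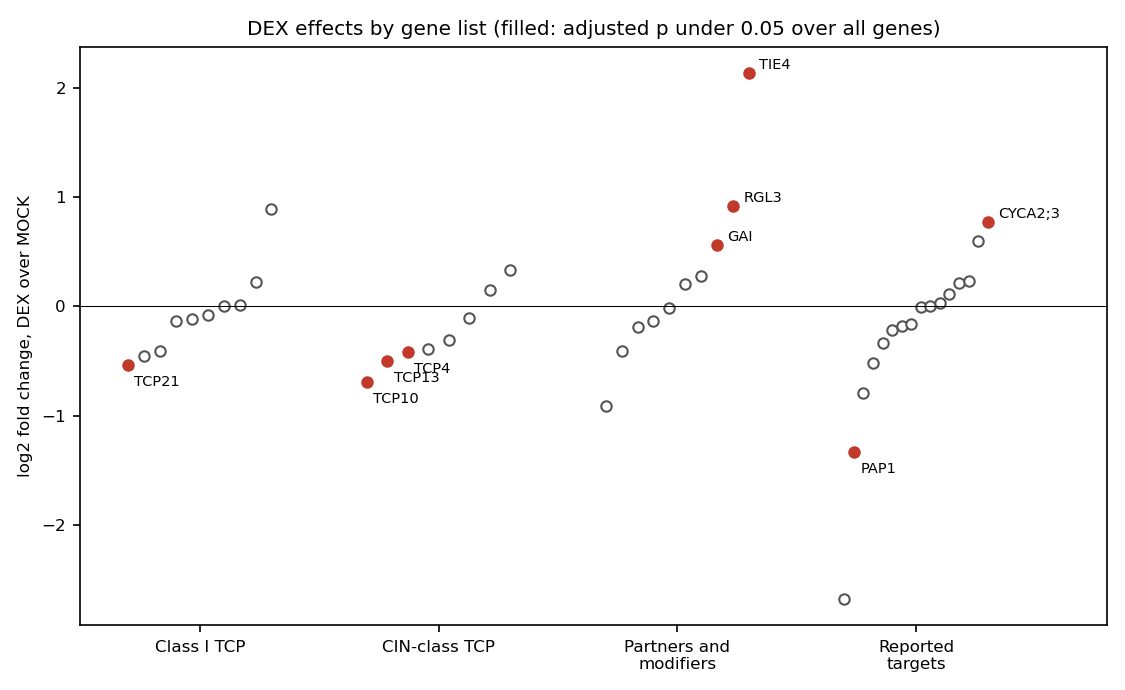
Log2 fold change of DEX over MOCK (vertical axis) for each tested gene of 4 lists, in rising order within a list, with filled points where the adjusted p over all genes was under 0.05. TCP21 is filled among the class I genes, 3 CIN-class genes below 0 are filled, and TIE4 at 2.13 and RGL3 at 0.92 stand at the top of the partners.

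Of the 10 members, 8 have no intron in the RefSeq annotation, and their intron counts were between 0 and 2 in each library. TCP19 had 21, 18 and 6 intron counts with DEX, against 7, 23 and 9 with MOCK, and TCP20 had 12, 17 and 4 with DEX, against 15, 11 and 6 with MOCK. These are 3.98% and 2.64% of the exon and intron counts of the 2 genes. In none of the 10 members did a stretch of 50 bases of the exons occur elsewhere in the TAIR10.1 genome, so reads of that length lying within an exon would match 1 place.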

How the data were processed

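The authors deposited, per the file headers, raw read counts per locus for each of 6 libraries, split into exon and intron counts with their total, and a gene length in bases. The submitters' processing notes name STAR and DESeq2 without versions. Which counter, build and annotation were used is not given in the sources used here. Per the labels' protocols, the kit was TruSeq RNA v2, whose libraries carry no strand information. Exon counts per library ranged from 33428836 to 76859163. Among exon counts from 1 to 20, 16.6% to 25.8% were odd; of the members' 60 counts 17 were odd. An excess of even counts can arise where both mates of a pair are counted, and counts then overstate the independent fragments.

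Groups came from the labels. Tests on exon counts used edgeR 4.0.16 (R 4.3.3) with TMM factors and a robust quasi-likelihood fit of run and treatment. Genes passed filterByExpr at min.count 10 and min.total.count 15, and Benjamini-Hochberg adjusted p-values were read at 0.05. The test was also run on simulated counts drawn independently for each library. That check does not cover counting of both mates or replicates that are not independent. Alternatives used DESeq2 1.42.0, limma 3.58.1 (voom), other scalings, filters, terms and counts, and left out each library. Same-numbered DEX and MOCK libraries had correlated deviations from the group means (r over genes of 0.69, 0.69 and 0.91), but DEX replicate 1 matched MOCK replicate 2 more closely (0.77) and DEX replicate 2 matched MOCK replicate 1 (0.78), so the numbers mark the run, and the data do not show that they pair libraries within the first run. No fit with crossed pairs was made. No library duplicated another (lowest chi-square per degree of freedom 24.7). The members and lists were chosen with earlier results of these data known. Ribosomal genes were picked by product text with a filter that was tightened once, with more exclusions than first planned, and some organellar proteins may remain. The text names all members, the other class I loci, TCP5, up to 4 called genes a list (the marker list's PYK10 included), and the 3 genes most like the member with the smallest p; other genes of the lists were named after their values were seen. RefSeq matched 37898 of 38194 loci by locus tag and all 10 members; no coordinates are given, since the authors' build is not known.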

Additional observations from a re-analysis of the deposited data

How the results depend on the processing

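The count of genes called, 1024, became 2045 with DESeq2, 0 without the run term (edgeR, 798 at an unadjusted p under 0.05) and 571 with the replicate block, and lay between 279 and 1132 with 1 library left out. The count of members called for DEX against MOCK, 1, became 3 with DESeq2 and 0 without the run term, with the replicate block and in the first run alone, and lay between 0 and 2 with 1 library left out. The count of members called between the runs, 6, lay between 3 (without MOCK replicate 3) and 6 with 1 library left out, and was 5 or 6 in the other alternatives. Without the run term 0 genes passed in the lists of CIN-class genes, partners, targets and ribosomal genes. The interaction gave 0 members in 7 of 7 alternatives. The cause of these changes was not tested, except that fewer libraries enter in the first run alone and with 1 left out.

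TCP21 kept its direction in 18 of 18 alternatives and its call in 10. TCP8, near 0, had a log2 fold change of −0.00157 with voom, −0.00624 with at least 1 CPM in 3 libraries, −0.0103 without the run term and −0.00219 with the replicate block, and lay between −0.085 and 0.0764 with 1 library left out. TCP22 was at −0.0106 without the run term and between −0.0679 and 0.0969 with 1 library left out. TCP20 was at 0.00377 in the first run alone and between −0.162 and 0.00591 with 1 library left out. The replicate block changed no call of a member other than TCP21, and among the genes called in the lists it ended the calls of TCP4, GAI, PAP1, AT3G14595 and AT5G24490. Over all genes the median of the log2 fold changes ran from −0.01 to 0.05.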

Other observations

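The ribosomal protein genes, whose promoters are known for site II elements, were listed by product text, leaving out those whose text names an organelle. Of 236 listed genes 220 were tested. 1 rose, 1 fell and 218 did not pass, against 4.67% of all genes called. The count of 2 became 4 with DESeq2, 3 without DEX replicate 1, and 0 in the first run alone and without any other single library. The log2 fold change was above 0 for 188 and below 0 for 32, with a median of 0.07, against 0.00 over all genes, where 11125 were above 0 and 10809 below. The median was 0.02, with 130 above 0 and 91 below, without DEX replicate 2, and between 0.05 and 0.15 in the other alternatives. AT5G24490, which overlaps AT5G24500, rose by 0.57 ± 0.12 and AT3G14595 fell by 0.47 on the log2 scale (SE 0.09), and neither passed with the replicate block (edgeR adjusted p = 0.0855 for AT5G24490 and 0.0615 for AT3G14595).

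The 3 genes whose centred log2 CPM over the 6 libraries lay nearest to that of TCP21, by root mean square difference, were MC9 (0.0521), a metacaspase gene, AT1G26208 (0.0540) and CCR1 (0.0652), an enzyme gene of lignin synthesis. MC9 had 6.16, 4.81 and 6.75 CPM with DEX, against 6.89, 7.85 and 10.3 CPM with MOCK, and did not pass (edgeR adjusted p = 0.110). CCR1 had 71.0, 59.3 and 74.0 CPM with DEX, against 84.3, 90.8 and 115 CPM with MOCK, and fell by 0.50 on the log2 scale (SE 0.10, edgeR adjusted p = 0.0360). AT1G26208 and CCR1 overlap other loci. These 3 genes were picked for following TCP21 over the same 6 libraries. Their lower levels with DEX therefore follow from the choice and are not a separate result.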
